A study of Mus musculus with 24 samples.

Results

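Astrocytes from newborn and from adult mouse brain were each kept in culture, and the 2 kinds of culture were compared over all genes outside the sex chromosomes. Of the 49671 genes in the count table, 45145 lay on an autosome or on the mitochondrial genome and were the genes examined. The sexes were mixed, so 4181 genes on X and Y were left out, and a further 345 genes had no assigned chromosome. 18935 of the examined genes passed the filter on low counts and were tested.

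The comparison set 4 libraries of cultured neonatal astrocytes (neoAC CellC) against 4 of cultured adult astrocytes (AdAC CellC), out of 24 libraries in the series. All cells came from C57BL/6J mice, aged 4 to 8 days for the neonatal and 100 to 140 days for the adult isolations. Per the study's methods, replicates of neonatal and of adult astrocytes were separate isolations, each from 2 mice. Cells were sorted on magnetic beads for the astrocyte surface antigen ACSA-2, plated on poly-L-lysine and laminin in a medium for astrocytes, and harvested after 7 to 10 days. Neonatal cerebral tissue was freed of meninges and dissociated with a kit for neural tissue, without removal of myelin. Adult brains went through a kit for adult brain with removal of debris and red cells, so by these methods age and dissociation procedure cannot be told apart, although the labels name the adult kit for both ages. Removal of olfactory bulb and cerebellum was stated for direct adult isolation, and whether it was done before adult culture is not given in the sources used here. The same 2 sources frozen straight after sorting (neoAC direct and AdAC direct, 4 libraries each) served as a second comparison of the ages, with no library in common.

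Astrocytes clear glutamate and potassium from the space around neurons, move water through end feet on blood vessels, and supply neurons with lactate and cholesterol. In rodents they multiply during the first weeks after birth and then leave the cell cycle as they mature. In culture, astrocytes are known to flatten on the plastic, to build actin stress fibres and to change many genes of the mature state. ACSA-2 is an epitope of Atp1b2, a subunit of the sodium pump on the astrocyte surface.

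The 8 libraries held 28770124 to 33821050 counts in the neonatal group and 30643701 to 35430519 in the adult group, so a level of 3 counts in a library was about 0.0846 and 0.088 CPM. CPM stands for the counts of a gene after each library was scaled to the same total, with edgeR's trimmed mean of M-values (TMM). Levels below are CPM, as mean ± SD over 4 libraries or as the values of replicates 1, 2, 3 and 4 in that order. Fold changes are log2 values, neonatal over adult, ± SE. The SE was back-calculated as the absolute fold change over the square root of the F statistic of edgeR's quasi-likelihood test. It is therefore approximate, above all for genes with a few counts. Within groups, replicate 1 stood apart from its mates. The chi-square of its counts per degree of freedom was 38.8 to 58.7 against the other adult libraries and 21.3 to 37.4 against the other neonatal ones, beside 9.75 to 14.6 and 13.3 to 16.8 among the others. A single gene, Gm42418, made up 32.2 to 35.3% of the chi-square of adult replicate 1, is known to overlap ribosomal RNA, and read 14081, 3358, 2167 and 3095 CPM in the 4 adult libraries. Mitochondrial transcripts took 1.79 to 2.38% of counts in neonatal and 1.21 to 1.47% in adult cultures, without overlap. Checked against its markers, transcripts of the labelled cell type were present in both groups, but not alone. The summed level of 30 astrocyte markers was 17537, 19707, 20205 and 17895 CPM in neonatal and 3880, 4715, 4743 and 4867 CPM in adult cultures, and all of the neonatal values were above all of the adult ones. In adult cultures 15 genes of myelin and mature oligodendrocytes summed to 3768, 7589.5, 9349.6 and 7058 CPM. These sums were above those of the astrocyte markers in adult replicates 2, 3 and 4.

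The cultures differed in most of the genes tested. In edgeR's quasi-likelihood test with Benjamini-Hochberg adjustment, an adjusted p under 0.05 was reached by 12131 genes, 64.1% of those tested, of which 5411 (28.6%) were higher and 6720 (35.5%) lower in neonatal cultures. The 4 and 4 libraries did not overlap for 11837 genes (62.5%), and a change of more than 2-fold with an adjusted p under 0.05 was seen for 5663 genes (29.9%). The count of any gene group below is to be read against these shares. The split depended on the normalisation: TMM set the median change at -0.09 log2, while the size factors of DESeq2 set it at 0.02, with 6147 genes higher and 5711 lower. With TMM, long intergenic RNAs leaned to the neonatal side (269 of 702 higher, 126 lower). Protein-coding genes leaned to the adult side with TMM (4448 higher and 6051 lower of 15044). The counts by gene type were not repeated with another scaling.

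**Figure D1:**
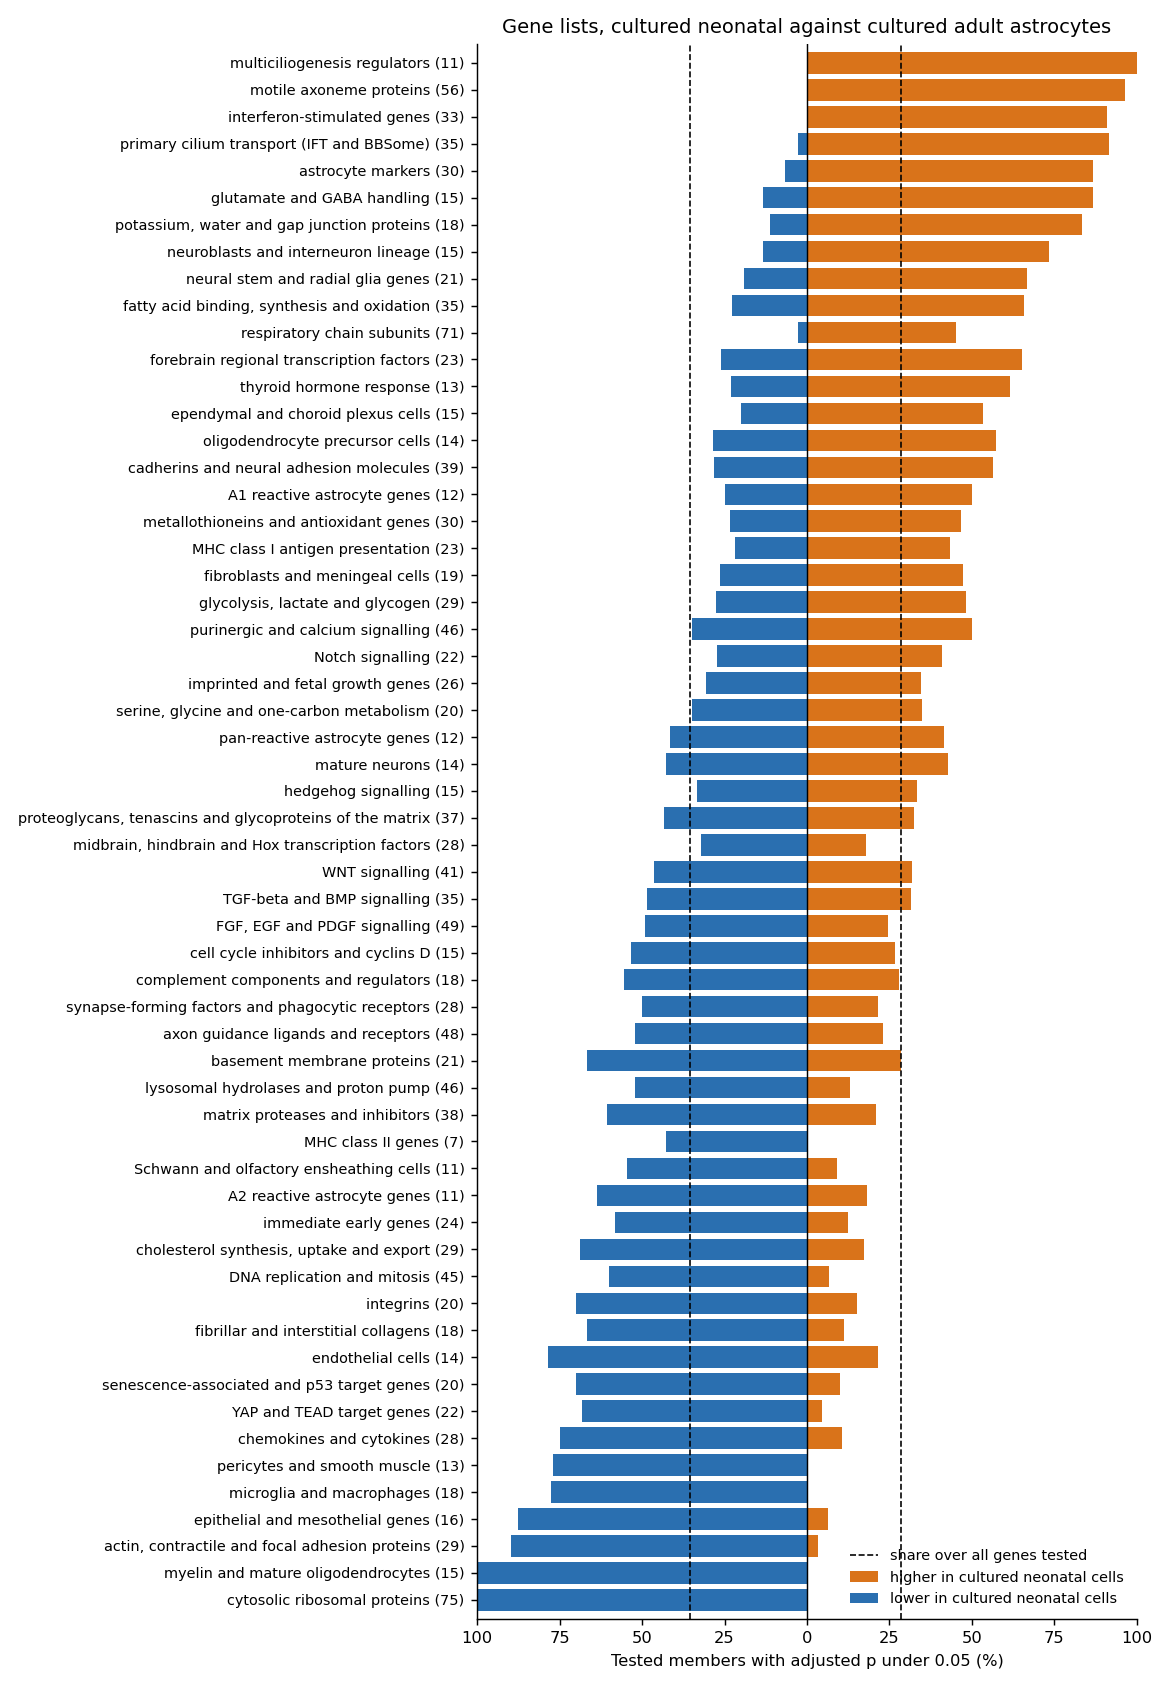
Share of tested members of each gene list that were higher (right, orange) or lower (left, blue) in cultured neonatal than in cultured adult astrocytes at an adjusted p under 0.05, in percent, with the number tested after each name. Dashed lines mark the share over all genes tested, 28.6% higher and 35.5% lower. Lists of cilia, interferon-stimulated and astrocyte genes reach far to the right, and ribosomal, myelin and actin lists far to the left.

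Of the 10 largest differences on the neonatal side, 4 were in regulators of multiciliated cells. Cdc20b, whose host locus carries a microRNA cluster of multiciliated cells, was at 28.8, 36.6, 38.9 and 31.6 CPM in neonatal and 0.0307, 0, 0.133 and 0.0621 CPM in adult cultures (9.10 ± 0.38, adjusted p = 6.18e-16). Mcidas, which switches on centriole amplification, read 32.8, 42.3, 44.7 and 36.4 against 0.0614, 0.146, 0.212 and 0.124 CPM (8.10 ± 0.31). Both were thus at a fraction of 1 CPM in every adult library, and for Cdc20b the adult mean lay under the level of 3 counts, so that its fitted change depends on the prior count. Foxn4, a transcription factor that also acts in multiciliated cells, was 28.9 ± 4.49 against 0.139 ± 0.138 CPM (7.60 ± 0.34), and Deup1, a scaffold of the deuterosome on which centrioles multiply, 109.8 ± 18.3 against 1.83 ± 0.336 (5.91 ± 0.25). Also in the top 10 were the secretin receptor Sctr (16.8 ± 2.96 against 0.135 ± 0.0734 CPM, 6.95 ± 0.26) and the adrenergic receptor Adra2a (72 ± 12.3 against 1.28 ± 0.178, 5.82 ± 0.31). Dio3, which inactivates thyroid hormone, was 27 ± 6.73 against 0.59 ± 0.319 CPM (5.48 ± 0.29). Glycam1, which codes for a secreted mucin, read 82.4, 139, 151 and 131 against 1.14, 1.02, 0.505 and 0.993 CPM (7.12 ± 0.30). Npas1, a transcription factor of interneurons, was 17.2 ± 3.18 against 0.38 ± 0.223 CPM (5.48 ± 0.42), and the synaptic adhesion gene Nrxn3 43.3 ± 6.78 against 0.798 ± 0.19 (5.75 ± 0.29).

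The 10 largest differences on the adult side included genes of oligodendrocytes and genes of epithelium. Opalin, a membrane protein of myelin, was at 0.156, 0.183, 0.0832 and 0.111 CPM in neonatal and 27.1, 48.4, 66.8 and 43.7 CPM in adult cultures (-8.41 ± 0.28, adjusted p = 4.66e-17). Ermn, a cytoskeletal protein of oligodendrocytes, was at 0.536 ± 0.101 and 127 ± 32.1 CPM (-7.87 ± 0.24). The protease Klk6, also a gene of oligodendrocytes, was 0.0776 ± 0.047 against 58.5 ± 19 CPM (-9.50 ± 0.34), and the glycosyltransferase Galnt6 0.279 ± 0.234 against 63.4 ± 22.2 (-7.86 ± 0.35). Grem1, a secreted inhibitor of BMPs, was at 0.0936, 0.288, 0.194 and 0.194 against 43.9, 28.6, 46.8 and 42.2 CPM (-7.66 ± 0.27) and did not overlap. The tight junction genes Cldn4 and Cldn6, the keratin Krt17, the mesothelial gene Msln and the adhesion gene Fermt1 made up the rest. Cldn4 read 22.6, 18.7, 54.2 and 24.6 CPM in adult and 0, 0.0786, 0 and 0 CPM in neonatal libraries. Msln read 17.1, 15.2, 43.3 and 25.5 CPM and 0.0624, 0.0262, 0 and 0 CPM, and Krt17 9.61, 10.9, 37.6 and 27.3 CPM and 0.0936, 0, 0 and 0 CPM. Cldn6 was at 17.9 ± 11.1 CPM and Fermt1 at 11.9 ± 8.1 CPM in adult cultures. The fitted changes of these 5 genes were -10.24 ± 0.53, -9.99 ± 0.54, -9.74 ± 0.63, -9.49 ± 0.58 and -7.47 ± 0.55, in this order, and adult replicate 3 was the highest in each. For these 5 genes and Klk6 the mean neonatal level lay under the 3-count level, so their fitted changes depend on the prior count.

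Among the most abundant called genes, Apoe, the main lipid carrier of the brain, stood at 3287 ± 462 CPM in neonatal and 271 ± 51.2 CPM in adult cultures (3.60 ± 0.21, adjusted p = 4.05e-13). Igfbp5, which binds insulin-like growth factors, was 3381, 3669.7, 3578 and 4110.1 against 659, 781, 866 and 792 CPM (2.25 ± 0.58), and Scd2, a fatty acid desaturase, 3798 ± 214 against 2253 ± 304 (0.75 ± 0.12). On the adult side, Vim, the intermediate filament of immature and reactive astrocytes (3103 ± 166 against 4264 ± 332 CPM, -0.46 ± 0.14), Actb (1806 ± 109.8 against 3330.5 ± 138, -0.88 ± 0.10) and the elongation factor Eef1a1 (2263 ± 243 against 4262 ± 202, -0.91 ± 0.10) differed by less than 2-fold. The mitochondrial transcripts mt-Co1 (0.50 ± 0.21, adjusted p = 0.0418) and mt-Cytb (0.46 ± 0.18, adjusted p = 0.0301) were higher in neonatal cultures.

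Genes of astrocyte identity were mostly higher in the neonatal cultures. Of 30 astrocyte markers tested, 26 were higher and 2 lower, with a median change of 2.28. Gfap, the intermediate filament of astrocytes, was at 2654, 3143, 2806 and 2576 CPM in neonatal and 126, 200.5, 171 and 259.9 CPM in adult cultures (3.88 ± 0.16, adjusted p = 2.75e-16), about 14.8-fold. The 2 groups were far apart, and neonatal replicates differed little. Slc1a3, the glutamate transporter GLAST, read 1215, 1116, 1095 and 1016 against 163, 210.2, 216 and 286 CPM (2.34 ± 0.14). Ntsr2, a neurotensin receptor found on astrocytes, was 61.5 ± 18.4 against 1.88 ± 0.64 CPM (5.04 ± 0.28), and Agt, which codes for angiotensinogen, 37.8 ± 6.06 against 1.78 ± 0.31 (4.41 ± 0.23). The 2 markers lower in neonatal cultures were the serine protease Htra1 (270.3 ± 21.2 against 554 ± 42.7 CPM, -1.03 ± 0.15) and glutamine synthetase, Glul (475, 369.7, 456 and 363 against 457, 676, 743 and 627 CPM, -0.59 ± 0.12, adjusted p = 0.000137), whose libraries overlapped.

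Genes of transport and coupling, which share members with the marker list, were also mostly higher in neonatal cultures. Among genes for glutamate and GABA handling, 13 of 15 were higher, among them the GABA transporters Slc6a11 (189 ± 24.6 against 10.6 ± 2.82 CPM, 4.16 ± 0.19) and Slc6a13 (8.65 ± 3.16 against 0.389 ± 0.0974, 4.47 ± 0.29). Glul was lower. Of 18 genes for potassium and water transport and gap junctions, 15 were higher and 2 lower. The water channel Aqp4 was at 614, 1145, 967 and 1081 CPM in neonatal and 41.6, 68, 53 and 71 CPM in adult cultures (4.03 ± 0.23, adjusted p = 4.76e-13). Kcnj10, the main potassium channel of astrocytes, read 1783, 1393, 1483 and 1433 against 210.4, 323, 345 and 382 CPM (2.27 ± 0.22). Atp1b2, the carrier of the sorting epitope, was 1079.8, 1214, 1381 and 1297 against 96.8, 127, 134 and 135 CPM (3.34 ± 0.15), again without overlap. The chloride cotransporter Slc12a2 (74.5 ± 6.58 against 179 ± 26.5 CPM, -1.26 ± 0.13) was higher in adult cultures.

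Genes of neural stem cells and radial glia, which overlap with astrocyte genes, were more often higher in neonatal cultures. 14 of 21 were higher and 4 lower, with a median of 0.66. The endothelin receptor Ednrb (330.1 ± 34.6 against 27 ± 6.82 CPM, 3.61 ± 0.31) and the differentiation inhibitor Id4 (166 ± 30.9 against 34.5 ± 3.71, 2.27 ± 0.23) were higher. Sox2, the transcription factor of neural progenitors, differed by less than 2-fold (156 ± 0.305 against 111 ± 8.77, 0.48 ± 0.11, adjusted p = 0.000452). Tnc, a matrix protein of the stem cell niche, was 386 ± 60.4 CPM in neonatal and 1296 ± 161 CPM in adult cultures (-1.75 ± 0.24), and the Notch effector Hes1 15.1 ± 1.16 against 43.3 ± 2.42 (-1.52 ± 0.19). In directly isolated cells Tnc was on the other side (7.74 ± 0.31).

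**Figure D2:**
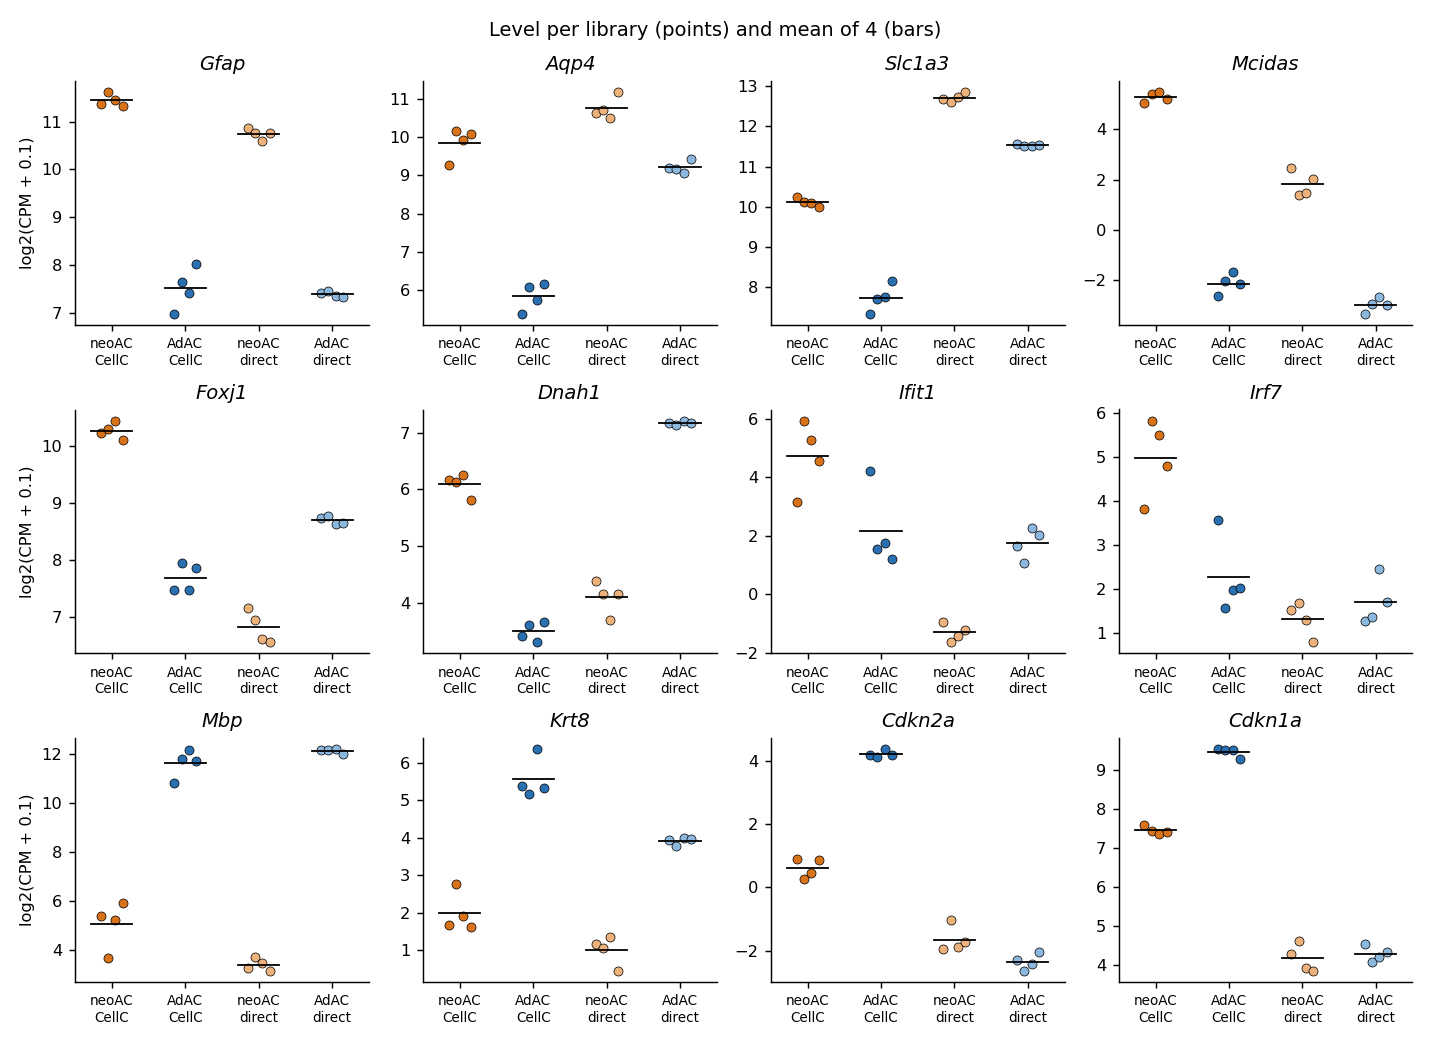
Levels of 12 genes in each of 16 libraries as log2(CPM + 0.1), by group: cultured neonatal (neoAC CellC), cultured adult (AdAC CellC), directly isolated neonatal (neoAC direct) and directly isolated adult (AdAC direct). Each point is 1 library and each bar the mean of 4. Gfap, Aqp4 and Mcidas are higher in the neonatal cultures without overlap, Ifit1 overlaps between the cultures, and Mbp, Krt8, Cdkn2a and Cdkn1a are higher in the adult cultures.

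Genes of motile cilia were higher in the neonatal cultures almost without exception. Motile cilia beat by dynein arms on a ring of paired microtubules, are built on many centrioles at once, and in the brain mark ependymal cells. In vertebrates, Gmnc and Mcidas start the program, Foxj1 and RFX factors drive the axoneme genes, and intraflagellar transport (IFT) builds all cilia, including the single primary cilium of astrocytes. RFX proteins bind the X-box, of which GTTGCC is a half-site. Stretches of 60 bases around it are shown, with the half-site of either strand in capitals, for the regulators and axoneme genes with the largest changes that had it upstream of the start and clear of exons. They are RefSeq promoter sequence on GRCm38.p6, read 5′ to 3′ on the gene's strand.
Mcidas (chr13:112993646-112993705, plus strand): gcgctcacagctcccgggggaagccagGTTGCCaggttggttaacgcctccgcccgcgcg
Ccno (chr13:112987556-112987615, plus strand): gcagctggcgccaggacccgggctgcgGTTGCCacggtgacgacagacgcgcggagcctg
Rfx2 (chr17:56831092-56831151, minus strand): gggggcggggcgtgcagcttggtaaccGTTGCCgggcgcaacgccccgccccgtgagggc
Enkur (chr2:21205367-21205426, minus strand): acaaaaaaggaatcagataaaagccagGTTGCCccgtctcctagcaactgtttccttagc
Tekt1 (chr11:72361885-72361944, minus strand): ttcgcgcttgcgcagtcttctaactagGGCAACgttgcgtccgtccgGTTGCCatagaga
Pifo (chr3:106001498-106001557, minus strand): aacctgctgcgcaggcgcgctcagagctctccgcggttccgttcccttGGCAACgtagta
Cfap44 (chr16:44394643-44394702, plus strand): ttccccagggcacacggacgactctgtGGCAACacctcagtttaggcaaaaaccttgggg

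The half-site was present within 250 bases before and 50 after the start in 23 of 44 axoneme genes (52.3%), 6 of 10 regulators (60%) and 13 of 31 IFT and BBSome genes (41.9%) with a promoter in the reference, against 14.1% of 27025 genes. A match describes the letters only.

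All 11 regulators of multiciliogenesis tested were higher in neonatal cultures (11 of 11, median 4.93). Foxj1 was at 1206, 1254, 1398 and 1108 CPM in neonatal and 179, 248, 177 and 232 CPM in adult cultures (2.57 ± 0.15, adjusted p = 3.33e-13). Its level in the neonatal cultures was about 5.95 times the adult one, and the groups were well apart. Of 56 axoneme proteins, 54 were higher, none was lower and the median was 2.16, a change close to that of Foxj1. The dynein heavy chain Dnah1 read 71.7, 69.9, 76 and 56.1 against 10.5, 12.1, 9.75 and 12.5 CPM (2.61 ± 0.17). The dynein assembly factors Dnaaf1 (32.5 ± 4.34 against 2.3 ± 0.169 CPM, 3.82 ± 0.16) and Zmynd10 (84.9 ± 11.9 against 7.5 ± 0.454, 3.50 ± 0.22) had the largest changes among members over 5 CPM. The summed level of the axoneme list was 4108, 4589, 4689 and 3751 CPM in neonatal and 1045, 1206, 881 and 1101 CPM in adult cultures, so axoneme transcripts were present in both. Ependymal cells carry such cilia, and their part in these values was not tested. For transport in primary cilia the changes were smaller: 32 of 35 IFT and BBSome genes were higher and 1 lower, with a median of 0.77. The BBSome subunits Bbs9 (35.9 ± 3.03 against 11.1 ± 1.25 CPM, 1.69 ± 0.09) and Bbs1 (66.5 ± 3.39 against 24.5 ± 2.6, 1.44 ± 0.09) led. The IFT-B subunit Ift20 differed by 0.46 ± 0.07, and the IFT-A subunit Ttc21b was lower (14.9 ± 0.703 against 20.5 ± 0.703, -0.46 ± 0.10).

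Cdc20b, Mcidas and Ccno are neighbours on chromosome 13, and their surroundings were looked at after these values were seen (GRCm38, Gencode vM21). Ccno (chr13:112987802-112990777), a cyclin-like protein for centriole amplification, was 62.2 ± 8.11 against 2.04 ± 0.51 CPM (4.93 ± 0.19), and Mcidas (chr13:112993845-113000394) and Cdc20b (chr13:113035111-113091195) were also higher, as given above. Dhx29 on one side (chr13:112927454-112969432) differed by less than 2-fold (37.6 ± 2.41 against 47 ± 1.83 CPM, -0.32 ± 0.11). Gpx8, which lies within the span of Cdc20b (chr13:113042753-113046410), was not called (103 ± 11.5 against 92.8 ± 6.42 CPM, 0.14 ± 0.12, adjusted p = 0.308). Esm1 on the other side (chr13:113209659-113218098) was higher in adult cultures (0.725 ± 0.362 against 31.3 ± 9.34 CPM, -5.44 ± 0.38). Of the genes named here, those higher in neonatal cultures were these 3 neighbours.

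Interferon-stimulated genes were higher in neonatal cultures as a list, but the libraries of the groups overlapped for most of them. These genes carry antiviral effectors and signalling parts and answer interferons through the interferon-stimulated response element (ISRE). The element was searched on both strands as TTTC, any 2 bases and TTTC, and 60-base stretches of 4 members are shown with it in capitals.
Ifit3b (chr19:34607744-34607803, plus strand): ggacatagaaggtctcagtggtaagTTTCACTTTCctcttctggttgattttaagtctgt
Rsad2 (chr12:26456538-26456597, minus strand): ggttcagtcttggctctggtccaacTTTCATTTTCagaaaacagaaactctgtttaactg
Isg15 (chr4:156200862-156200921, minus strand): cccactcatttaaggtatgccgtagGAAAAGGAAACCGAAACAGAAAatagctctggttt
Ifit1 (chr19:34640760-34640819, plus strand): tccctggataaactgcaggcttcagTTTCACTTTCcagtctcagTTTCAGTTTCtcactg

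It was present in 15 of 24 interferon-stimulated genes with a promoter in the reference (62.5%), against 3.99% of all genes. Of 33 members tested, 30 were higher and none lower, with a median of 1.39. In a fit of the 8 cultured libraries alone 23 were higher, and 13 with the replicate number as a block. The 4 and 4 libraries were apart for 10 of 33, where 62.5% of all genes were. Ifit1, which binds viral RNA, was at 8.92, 61.6, 39.1 and 23.4 CPM in neonatal and 18.4, 2.83, 3.29 and 2.2 CPM in adult cultures (2.32 ± 0.55, adjusted p = 0.000879). Neonatal replicate 1 was the lowest and adult replicate 1 the highest of their groups, and these 2 crossed. The sum over the list had the same shape, with 645, 1976, 1414 and 1154 CPM in neonatal and 728, 437, 458 and 433 CPM in adult libraries. The transcription factor Irf7 was 13.9, 57, 45.2 and 27.9 against 11.8, 2.86, 3.82 and 3.94 CPM (2.69 ± 0.40). Gbp3, a guanylate-binding GTPase, did not overlap (58.3, 153, 109 and 92 against 17.7, 10.4, 12.9 and 12.3 CPM, 2.96 ± 0.25). Without neonatal replicate 2, the highest of its group, 24 members were called higher.

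**Figure D3:**
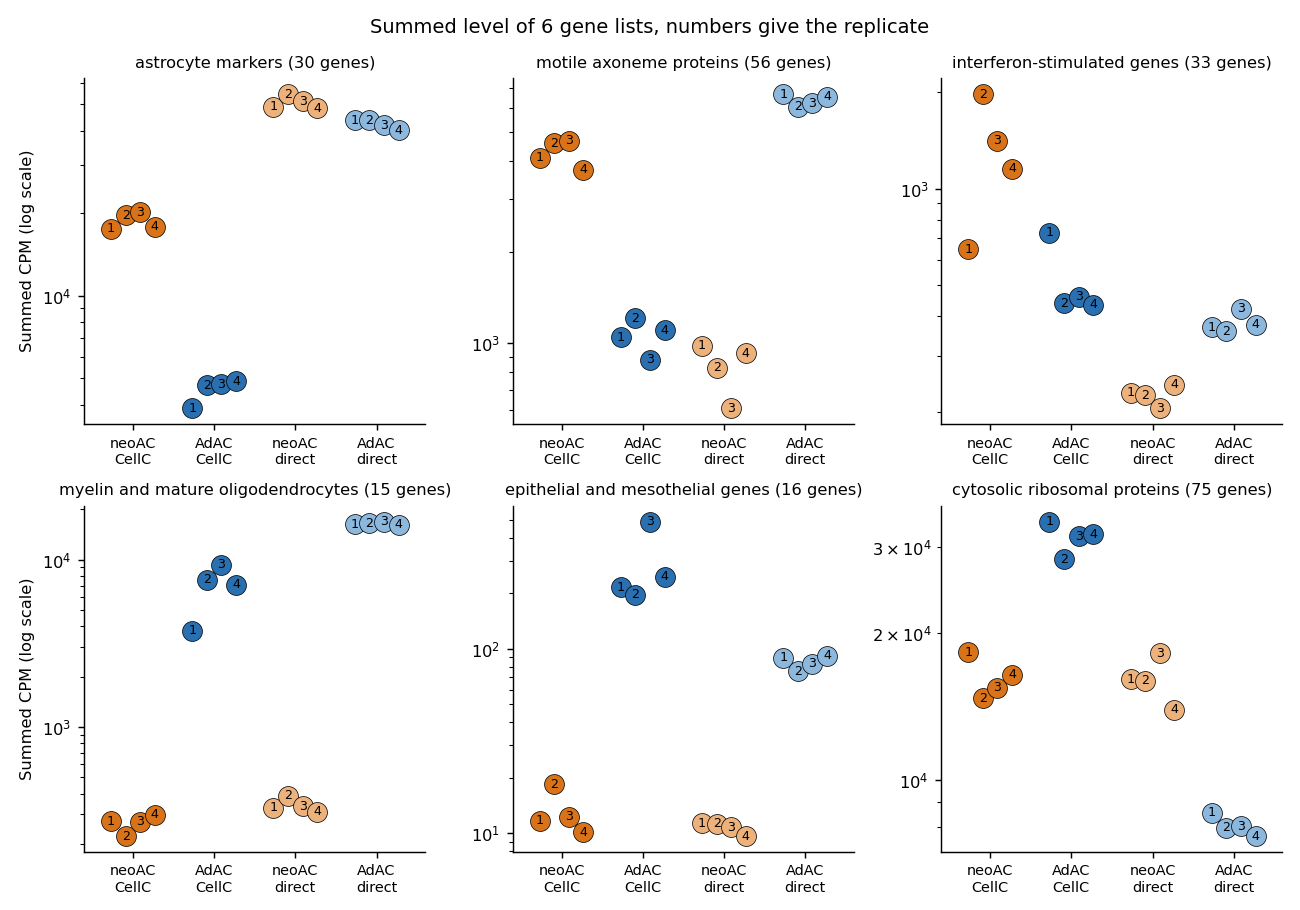
Summed CPM of 6 gene lists in each of the 8 cultured and 8 directly isolated libraries, on log axes, with replicate numbers as labels. Neonatal cultures are above adult cultures for astrocyte markers and axoneme proteins and below them for myelin, epithelial and ribosomal genes, while for interferon-stimulated genes neonatal replicate 1 falls below adult replicate 1.

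Other immune genes did not follow the interferon list. For antigen presentation by MHC class I, 10 of 23 genes were higher and 5 lower, with 6 higher when neonatal replicate 2 was left out. The immunoproteasome subunit Psmb9 (9.75 ± 3.12 against 4.46 ± 0.488 CPM, 1.13 ± 0.20) and the trimming peptidase Erap1 (72.8 ± 9.22 against 36.9 ± 0.894, 0.98 ± 0.12) were higher. The chaperone Calr (756 ± 8.24 against 1119 ± 25.9, -0.57 ± 0.07) and H2-M3 (3.05 ± 0.335 against 5.64 ± 0.632, -0.88 ± 0.19) were lower, and H2-K1, a heavy chain, was not called (212 ± 55.3 against 197 ± 6.39). Class II genes were scarce, and Cd74, the invariant chain, read 0.415 ± 0.35 against 4.26 ± 1.49 CPM (-3.32 ± 0.44). Of 18 complement genes, 5 were higher and 10 lower. C3, the central component, was at 1086, 1277, 762 and 816 CPM in neonatal and 249, 455, 322 and 308 CPM in adult cultures (1.56 ± 0.27, adjusted p = 2.74e-05). The protease C1ra was 17.2 ± 2.14 against 7.96 ± 1.25 (1.11 ± 0.24), and Clu, a secreted chaperone that also curbs complement, 2036 ± 197 against 715 ± 95.8 CPM (1.51 ± 0.11). C1qb (0.819 ± 0.512 against 11.9 ± 2.52 CPM, -3.84 ± 0.53) and C1qc (1.06 ± 0.679 against 11.7 ± 2.09, -3.45 ± 0.50), known products of microglia, were higher in adult cultures.

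Chemokines and cytokines were mostly on the adult side, with 21 of 28 lower and 3 higher in neonatal cultures. Il33, an alarmin of astrocytes and oligodendrocytes, was at 7.11, 5.76, 4.55 and 4.79 CPM in neonatal and 109, 227, 233 and 195 CPM in adult cultures (-5.11 ± 0.25, adjusted p = 4e-14). Ccl2, which attracts monocytes, was 21.8 ± 8.85 against 56.1 ± 5.23 CPM (-1.37 ± 0.47, adjusted p = 0.0158), and Ccl20 was near the limit of detection in neonatal and at 5.03 ± 0.802 CPM in adult cultures (-6.24 ± 0.49). The exceptions were Cxcl14 (35.1 ± 8.52 against 13.2 ± 1.73 CPM, 1.42 ± 0.15), Il18 (11.5 ± 1.43 against 4.9 ± 0.321, 1.24 ± 0.13) and the interferon target Cxcl10 (26.2, 94.4, 50.8 and 43.1 against 53.6, 20.03, 20.2 and 20.6, 0.91 ± 0.36, adjusted p = 0.0315).

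Lists used to score reactive astrocytes were split between the ages. Of the pan-reactive genes 5 were higher and 5 lower of 12, with Gfap on the neonatal side and Serpina3n, a protease inhibitor, at 137, 152, 135 and 144 against 349, 555, 692 and 524 CPM (-1.90 ± 0.41). Lcn2, a secreted iron carrier, ranged widely, with 531, 302, 199 and 214 CPM in neonatal and 309, 526, 493 and 388 CPM in adult cultures, and was not called. The asparaginase Aspg was higher (6.44 ± 0.74 against 0.477 ± 0.146 CPM, 3.74 ± 0.26), and the heat shock protein Hspb1 lower (15 ± 3.21 against 53.7 ± 2.54, -1.84 ± 0.18). Of the A1 genes 6 of 12 were higher, led by the interferon-inducible GTPase Iigp1 (4.59, 40.1, 23.6 and 14.9 against 8.99, 1.08, 1.2 and 0.776 CPM, 2.80 ± 0.61). H2-T23, a class I molecule, was at 6.39 ± 3.18 against 4.06 ± 1.02 (0.66 ± 0.29, adjusted p = 0.0464). Fkbp5, a target of glucocorticoids (39.8 ± 7.15 against 76.5 ± 6.67, -0.94 ± 0.25), and Amigo2 (5.44 ± 0.295 against 9.53 ± 1.03, -0.81 ± 0.14) were lower. Of the A2 genes 7 of 11 were lower, among them Ptgs2, the inducible cyclooxygenase (2.86 ± 1.26 against 42.5 ± 5.85 CPM, -3.90 ± 0.26), Sphk1 (2.73 ± 1.06 against 17.2 ± 2.25, -2.65 ± 0.24) and the cytokine Clcf1 (18.8 ± 7.88 against 82.7 ± 5.34, -2.14 ± 0.29). B3gnt5 (0.99 ± 0.16) and Cd109 (0.78 ± 0.31) were higher.

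Transcripts of other cell types were present in both cultures and differed strongly. In bulk libraries, fewer cells of a type and less RNA of that type per cell cannot be told apart. All 15 genes of myelin and mature oligodendrocytes were lower in neonatal cultures (15 of 15, median -6.46). Mbp, a main protein of compact myelin, was at 42.1, 12.6, 37.4 and 60.4 CPM in neonatal and 1822, 3623, 4581 and 3394 CPM in adult cultures (-6.46 ± 0.38, adjusted p = 1.76e-12). The summed level was 273, 223, 272 and 298 against 3768, 7589.5, 9349.6 and 7058 CPM, so adult replicate 1 held the least of its group and still more than 10 times any neonatal library. In cells frozen after sorting the sums were 329.7, 389, 336 and 311 CPM for neonatal and 16305, 16471, 16822 and 16205 CPM for adult isolations. The part of oligodendrocytes in the other differences was not tested.

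Genes earlier in the oligodendrocyte lineage went both ways. Of 14 genes of oligodendrocyte precursors, 8 were higher and 4 lower. Pdgfra, the growth factor receptor that marks precursors, was at 45.1, 47, 59.6 and 71.6 CPM in neonatal and 2.46, 3.41, 2.05 and 2.45 CPM in adult cultures (4.43 ± 0.25), and Lhfpl3 at 20.5 ± 4.72 and 2.6 ± 0.515 (2.98 ± 0.37). Sox10, which is expressed throughout the lineage, was on the other side with 9.35 ± 2.09 against 157 ± 41.5 CPM (-4.07 ± 0.32), as was Enpp6, a gene of newly formed oligodendrocytes (1.27 ± 0.474 against 33.5 ± 7.98, -4.72 ± 0.24).

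Genes of interneuron precursors were higher in the neonatal cultures. 11 of 15 genes of neuroblasts and the interneuron lineage were higher and 2 lower. Dlx1, a homeobox factor of the ventral forebrain, read 29.5, 39, 39.5 and 38.1 against 0.952, 1.17, 2.12 and 1.4 CPM (4.68 ± 0.20, adjusted p = 9.54e-16), and its neighbour Dlx2 17.2 ± 1.14 against 1.64 ± 0.451 (3.38 ± 0.23). The long noncoding RNA Dlx6os1 read 11.6, 15.4, 14.1 and 16.5 against 0.0614, 0.0291, 0.0531 and 0 (8.48 ± 0.35). The neuronal cytoskeletal genes Stmn2 (11.9 ± 1.59 against 59.1 ± 11.8 CPM, -2.31 ± 0.18) and Tubb3 (47.5 ± 1.66 against 144 ± 32.8, -1.60 ± 0.25) were the 2 that were lower. Genes of mature neurons were split 6 to 6 of 14 at low levels, with the kinase Camk2a (70.5 ± 13 against 6.4 ± 2.05 CPM, 3.46 ± 0.31), Reln (0.73 ± 0.19) and Rbfox3 (3.92 ± 0.32) higher and the neurofilaments Nefm (-2.68 ± 0.16) and Nefl (-1.98 ± 0.28), which overlap each other's locus in part, lower.

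By count of genes, microglial, vascular and epithelial lists were mostly on the adult side. 14 of 18 microglial genes were lower in neonatal cultures, with sums of 49.8, 60.5, 53.1 and 68.4 against 124, 168, 146 and 152 CPM. Csf1r, the receptor for the growth factor of macrophages and microglia, was 0.417 ± 0.133 against 5.96 ± 1.37 CPM (-3.83 ± 0.46). Among those not called were Cx3cr1 (0.385 ± 0.238 against 0.715 ± 0.418 CPM), P2ry12 (0.807 ± 0.191 against 0.747 ± 0.33) and Tmem119 (2.98 ± 1.09 against 2.34 ± 1.17). Of 14 endothelial genes 11 were lower, with the tight junction protein Cldn5 at 0.0688 ± 0.0612 against 4.13 ± 0.694 CPM (-5.80 ± 0.61), Tie1 (-6.23 ± 0.61) and Esam (-5.23 ± 0.40). The transporter Slco1a4 (49.3 ± 8.51 against 4.57 ± 1.3, 3.43 ± 0.25) and Kdr (47.5 ± 13.9 against 23.5 ± 3.23, 1.02 ± 0.31) were higher. The endothelial sums overlapped, at 93.35, 105, 108 and 143 CPM in neonatal and 124, 107, 111 and 121 CPM in adult libraries. Of 13 pericyte and smooth muscle genes 10 were lower and none higher, with Rgs5 at 1.51 ± 0.537 against 47.8 ± 17.2 CPM (-4.99 ± 0.34). The filament Des was at 0.297 ± 0.127 against 20.9 ± 3.3 (-6.10 ± 0.35) and Pdgfrb at 47.8 ± 5.63 against 69.1 ± 3.32 (-0.53 ± 0.13).

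14 of 16 epithelial and mesothelial genes were lower in neonatal cultures, with sums of 11.7, 18.4, 12.3 and 10.1 CPM against 216, 197, 489 and 246 CPM. Krt8, a keratin of simple epithelia, was at 3.09, 6.71, 3.66 and 2.97 CPM in neonatal and 41.4, 36.1, 82.7 and 40.4 CPM in adult cultures (-3.60 ± 0.26, adjusted p = 1.15e-11). Adult replicate 3 had by far the highest sum, and the other adult libraries were also above every neonatal one. Without that library 14 of the list were lower. Fibroblast and meningeal genes were split, 9 higher and 5 lower of 19, with Lum (12.8 ± 3.67 against 2.45 ± 0.271 CPM, 2.38 ± 0.31) on one side and Foxc2 (0.648 ± 0.172 against 5.32 ± 0.852, -3.04 ± 0.30) on the other. Ependymal and choroid plexus genes were 8 higher and 3 lower of 15. Ccdc153, an ependymal gene, was 139 ± 21.2 against 10.5 ± 1.01 CPM (3.73 ± 0.16). Ttr, the transport protein made by choroid plexus, was 398, 1267, 612 and 519 against 364, 339, 229 and 206 (1.30 ± 0.39, adjusted p = 0.00582), with neonatal replicate 2 far above its mates. S100a6 (-1.10 ± 0.21) and Enpp2 (328 ± 156 against 575 ± 103, -0.81 ± 0.21) were lower. Of 11 Schwann and olfactory ensheathing genes 6 were lower, and the 1 higher was Fabp7, which astrocytes and radial glia also make (719.6 ± 174 against 384 ± 112, 0.91 ± 0.20). Foxd3, a transcription factor of the neural crest, was 0.406, 0, 0 and 0.111 against 6.66, 3.79, 14.3 and 0.776 CPM (-5.68 ± 1.06).

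The contractile and adhesive apparatus was higher in adult cultures. Of 29 genes of actin, contractility and focal adhesions, 26 were lower in neonatal cultures and 1 was higher, with a median of -1.53. Acta2, smooth muscle actin, was at 484, 372, 252 and 607 CPM in neonatal and 916, 799, 713 and 825 CPM in adult cultures (-0.92 ± 0.22, adjusted p = 0.000765). Tes, a focal adhesion protein, had the largest change (1.5, 0.839, 0.61 and 1.08 against 47.7, 38.3, 44.7 and 40.7 CPM, -5.42 ± 0.34), followed by the tropomyosin Tpm2 (10.3 ± 3.54 against 65.3 ± 8.76, -2.66 ± 0.19). The exception was the calponin Cnn3 (1068 ± 46.6 against 866 ± 41.1 CPM, 0.30 ± 0.09). Of 22 genes of the YAP and TEAD pathway, which responds to cell stretch and density, 15 were lower. The receptor kinase Axl was at 172 ± 15.1 against 484 ± 45.7 CPM (-1.49 ± 0.11) and Vgll3 at 23 ± 6.72 against 92.7 ± 11.3 (-2.01 ± 0.17). The coactivator Wwtr1 was higher (0.52 ± 0.09), and Ccn1, a secreted target, differed by less than 2-fold (495 ± 61.1 against 659 ± 44.5, -0.41 ± 0.17). Of 20 integrins, 14 were lower, among them Itgb3 (1.88 ± 0.365 against 9.77 ± 1.42 CPM, -2.38 ± 0.22) and the leukocyte chain Itgb2 (0.495 ± 0.193 against 11 ± 1.36, -4.47 ± 0.42). The laminin receptor Itga6 (346 ± 50.8 against 126 ± 11.9, 1.46 ± 0.15) and Itga8 (1.19 ± 0.34) were higher. The collagen receptor Itga1 was not called (42.1 ± 6.38 against 50.5 ± 3.04 CPM).

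Matrix genes were split, with collagens mostly higher in adult cultures. Of 18 interstitial collagens 12 were lower in neonatal cultures, with Col1a1 at 171, 226, 147 and 219 CPM against 918, 595, 866 and 873 CPM (-2.09 ± 0.17, adjusted p = 1.72e-10) and Col6a1 at 51.4 ± 10.3 against 220 ± 27.6 (-2.10 ± 0.41). The 2 that were higher were the chains of collagen XI, Col11a1 (361 ± 25.9 against 232 ± 8.0 CPM, 0.64 ± 0.26) and Col11a2 (21.1 ± 5.53 against 10.6 ± 1.41, 1.00 ± 0.20). Of 21 basement membrane genes 14 were lower and 6 higher. The laminin chains parted: Lama1 (27.9 ± 8.26 against 3.55 ± 0.735 CPM, 2.98 ± 0.20) and Lama2 (103 ± 14.1 against 44 ± 4.4, 1.22 ± 0.11) were higher in neonatal cultures. Lama4 (8.47 ± 2.63 against 56.2 ± 6.66, -2.73 ± 0.18) and Lamb1 (48.8 ± 10.8 against 306 ± 41.8, -2.64 ± 0.21) were higher in adult ones. Col4a1, a collagen of all basement membranes, was 640 ± 49.8 against 1301 ± 37.9 CPM (-1.02 ± 0.21). Among proteoglycans and matrix glycoproteins (12 higher and 16 lower of 37), Bcan, coding for brevican (433 ± 60.5 against 45.5 ± 8.73 CPM, 3.25 ± 0.15), and the link protein Hapln1 (11.8 ± 1.87 against 0.577 ± 0.209, 4.33 ± 0.21) were on the neonatal side. Hapln2, the link protein of nodes of Ranvier made by oligodendrocytes (0.401 ± 0.0897 against 24.8 ± 7.41 CPM, -5.94 ± 0.26), and the hyaluronan synthase Has2 (0.293 ± 0.245 against 6.37 ± 1.75, -4.42 ± 0.37) were on the adult side.

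Matrix proteases were higher in adult cultures. Of 38 proteases, inhibitors and crosslinking enzymes 23 were lower in neonatal cultures and 8 higher. Plaur, the receptor of urokinase, read 2.9, 0.681, 0.527 and 0.776 CPM against 55.4, 39.2, 45.6 and 47.1 CPM (-5.29 ± 0.45, adjusted p = 5.78e-10), and Mmp12, a macrophage elastase, 0.0936, 0.105, 0.139 and 0.0554 against 10.5, 13.4, 10.6 and 7.57 (-6.69 ± 0.35). Mmp2, a gelatinase, differed less (64.4 ± 10.3 against 142 ± 10.9 CPM, -1.14 ± 0.16). Mmp12 lies in a cluster of proteases on chromosome 9. The other tested genes in the stretch from Mmp13 to Mmp8 were looked at afterwards, and all of these were on the same side. Mmp3 was 0.476 ± 0.376 against 8.24 ± 1.33 CPM (-4.14 ± 0.39). Mmp13 (0.112 ± 0.0478 against 0.62 ± 0.149 CPM, -2.43 ± 0.42), Mmp10 (0.027 ± 0.0312 against 0.858 ± 0.179 CPM, -4.75 ± 0.61) and Mmp8 (0.00655 ± 0.0131 against 1.82 ± 0.56 CPM, -7.40 ± 0.62) were at under 2 CPM in both groups. On the neonatal side were the inhibitors Timp4 (80.6 ± 20.7 against 7.08 ± 0.905 CPM, 3.51 ± 0.23), which lies within Syn2 on the other strand, and Serpine2 (665 ± 26 against 189 ± 16.8, 1.81 ± 0.12).

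Many genes of cell cycle arrest were higher in adult cultures, and so were many genes of DNA replication. Of 20 genes tied to senescence or p53, 14 were lower in neonatal cultures and 2 higher. The list of cell cycle inhibitors and cyclins D was more mixed, with 8 of 15 lower, 4 higher and a median of -0.255. Cdkn2a, which codes for the inhibitors p16 and p19ARF, was at 1.75, 1.1, 1.27 and 1.72 CPM in neonatal and 18.1, 17.3, 20.5 and 18.1 CPM in adult cultures (-3.67 ± 0.15, adjusted p = 5.93e-16). Its neighbour Cdkn2b was 8.74 ± 1.41 against 37.2 ± 1.67 CPM (-2.09 ± 0.27), and Cdkn1a, coding for p21, 193, 172, 165 and 168 against 741, 723, 726 and 619 (-2.01 ± 0.20). Cdkn2c (74.7 ± 13.4 against 48.1 ± 6.12 CPM, 0.63 ± 0.14), Cdkn1c (0.66 ± 0.18), the p53 target Sesn1 (0.53 ± 0.13) and the chromatin protein Hmgb2 (0.34 ± 0.11) were higher in neonatal cultures.

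Of 45 genes of DNA replication and mitosis, 27 were lower in neonatal cultures, 3 were higher and the median was -0.37. The replicative helicase subunit Mcm2 was at 84.2, 48.2, 53 and 58.8 CPM in neonatal and 124, 115, 115 and 131 CPM in adult cultures (-0.99 ± 0.16, adjusted p = 1.01e-05). The origin licensing genes Cdc6 (8.36 ± 3.06 against 19.7 ± 1.61 CPM, -1.24 ± 0.17) and Orc1 (1.64 ± 0.536 against 6.36 ± 0.434, -1.96 ± 0.26) had the largest changes. The mitotic genes Kif11 (93.2 ± 14.2 against 67.5 ± 6.58, 0.47 ± 0.15) and Cenpf (114 ± 13.1 against 83.4 ± 7.8, 0.46 ± 0.16) were slightly higher. Mki67, the marker of cycling cells, was 248, 173, 167 and 232 CPM in neonatal and 261, 224, 234 and 288 CPM in adult cultures (-0.30 ± 0.15, adjusted p = 0.0818), chosen after its values were seen. In cells frozen after sorting the same list was on the opposite side, with 42 of 45 higher in neonatal cells, beside 34.7% of all genes tested.

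All 75 cytosolic ribosomal protein genes tested were lower in neonatal cultures, with a median of -0.96. In directly isolated neonatal cells all 75 were higher, with a median of 0.98, beside 34.7% of all genes tested. Their summed level was 18250, 14679, 15435 and 16384 CPM in neonatal and 33715, 28244, 31469 and 31805 CPM in adult cultures. Rpl3, of the large subunit, read 378, 302, 309.9 and 332 against 716, 604, 683 and 699 CPM (-1.03 ± 0.10). Rpl12 (193 ± 35.5 against 542 ± 48.8, -1.49 ± 0.11) and Rpl13a (10.9 ± 1.94 against 28.8 ± 0.678, -1.40 ± 0.12) changed most. Many of these genes share sequence with processed pseudogenes, which could affect how their reads were counted.

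Immediate early genes were more often higher in adult cultures. 14 of 24 were lower in neonatal cultures, led by Fosl1 (6.02, 2.23, 1.44 and 2.13 against 56.3, 41.8, 41.2 and 43.1 CPM, -3.96 ± 0.32), an AP-1 subunit, and Ier3 (8.91 ± 3.41 against 51.3 ± 8.45, -2.53 ± 0.36). The orphan receptors Nr4a3 (16.1 ± 1.02 against 6.48 ± 0.744 CPM, 1.32 ± 0.17) and Nr4a1 (0.52 ± 0.17) were higher, and Fos was not called (53.5 ± 9.54 against 56.1 ± 9.03). In directly isolated cells, Fos was higher in the neonatal group (2.94 ± 0.33).

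Signalling pathways were split between the ages. In the hedgehog pathway, Shh, the ligand, was at 9.05, 5.71, 1.83 and 7.26 CPM in neonatal and 124, 103, 81.9 and 94.9 CPM in adult cultures (-4.09 ± 0.29, adjusted p = 3.37e-11). The target and antagonist Hhip was at 1.45 ± 0.361 and 6.27 ± 0.567 (-2.11 ± 0.28). The effector Gli2 (33.8 ± 2.1 against 12.5 ± 2.5 CPM, 1.44 ± 0.14) and the coreceptor Gas1 (134 ± 14.2 against 50.4 ± 8.02, 1.41 ± 0.16) were higher in neonatal cultures. Over the list 5 of 15 were higher and 5 lower. In the TGF-beta and BMP pathway (11 higher, 17 lower of 35), the ligand Tgfb1 was 2.13 ± 0.277 against 22.8 ± 4.46 CPM (-3.42 ± 0.26) and the antagonist Fst 1.62 ± 0.568 against 28.6 ± 2.0 (-4.14 ± 0.24), with Grem1 given above. The BMP receptor Bmpr1b (32.8 ± 4.33 against 4.09 ± 0.474 CPM, 3.01 ± 0.17) and the transducer Smad9 (27.3 ± 4.72 against 2.1 ± 0.263, 3.70 ± 0.19) were on the neonatal side.

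For Notch (9 higher, 6 lower of 22), the ligand Jag1 was 6.42 ± 2.75 CPM in neonatal and 67.3 ± 5.55 CPM in adult cultures (-3.40 ± 0.21), and the receptor Notch1 was not called (233 ± 17.7 against 216 ± 29). The target genes parted, with Hey1 at 156 ± 9.65 against 23.6 ± 5.22 CPM (2.72 ± 0.16) and Heyl at 0.638 ± 0.147 against 8.0 ± 2.46 (-3.65 ± 0.26). The Notch ligand Dner was higher (206 ± 25.6 against 48.5 ± 9.33, 2.09 ± 0.12). For WNT (13 higher, 19 lower of 41), Wnt7a, which is known to act on brain vessels, was 92 ± 14.6 against 9.61 ± 2.6 CPM (3.26 ± 0.20). Sfrp1, a secreted antagonist, was 201 ± 33.5 against 54.9 ± 7.28 (1.88 ± 0.13), Wnt2b 2.13 ± 0.531 against 8.87 ± 2.65 (-2.06 ± 0.24) and the receptor Lgr6 2.1 ± 0.895 against 36.4 ± 6.94 (-4.13 ± 0.19). Of 49 genes of FGF, EGF and PDGF signalling 24 were lower and 12 higher. The EGF receptor ligand Ereg was at 2.34, 1.47, 0.582 and 0.998 against 44.9, 44.9, 32.4 and 41.6 CPM (-4.93 ± 0.27). Fgf10 was at 0.114 ± 0.0661 against 5.91 ± 0.205 (-5.67 ± 0.34), Fgf1 at 123 ± 11.6 against 46 ± 5.73 (1.42 ± 0.14) and Hgf at 14.5 ± 2.48 against 1.98 ± 0.476 (2.87 ± 0.18).

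Transcription factors of brain regions differed as well, and which regions went into the adult cultures is not given in the sources used here, as said above. Of 23 forebrain factors 15 were higher in neonatal cultures and 6 lower. Nkx2-1, a factor of the ventral forebrain (2.83 ± 0.318 against 30.7 ± 3.64 CPM, -3.43 ± 0.16), and Six3 (24.9 ± 4.09 against 61.4 ± 4.19, -1.30 ± 0.14) were on the adult side. Factors of midbrain and hindbrain were low, 5 higher and 9 lower of 28. En1 (0.241 ± 0.061 against 2.1 ± 1.18 CPM, -3.11 ± 0.44), En2 (2.53 ± 0.503 against 9.16 ± 2.65, -1.85 ± 0.18) and Pax2 (1.46 ± 0.395 against 10.5 ± 1.04, -2.85 ± 0.26) were higher in adult cultures. Irx1 (11.2 ± 1.27 against 4.23 ± 1.02, 1.41 ± 0.19) and Irx2 (0.71 ± 0.13) were higher in neonatal ones.

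Of genes with a known tie to age, imprinted and fetal growth genes went both ways (9 higher, 8 lower of 26). Dlk1, an imprinted membrane protein, was at 37.8, 31.8, 41 and 46.9 CPM in neonatal and 1.32, 0.874, 1.25 and 1.02 CPM in adult cultures (5.13 ± 0.21, adjusted p = 3.81e-16). Nnat, also imprinted, was at 229.8 ± 21.8 and 25.5 ± 2.14 (3.17 ± 0.13). The fetal chromatin protein Hmga2 was on the adult side, with 2.56, 0.576, 0.0832 and 0.554 against 97.9, 77.1, 88.5 and 84.3 CPM (-6.58 ± 0.39), as was Hmga1 (18 ± 14.2 against 314 ± 20.9, -4.13 ± 0.36). Igf2 was not called (58 ± 25 against 49.3 ± 10.9). For thyroid hormone (8 higher, 3 lower of 13), the enzyme that inactivates it, Dio3, and its transporter Slco1c1 (40.5 ± 7.4 against 8.34 ± 1.26 CPM, 2.28 ± 0.13) were higher. The activating enzyme Dio2 (22.4 ± 3.04 against 31.2 ± 7.56, -0.47 ± 0.13) and the hormone-binding Crym (21.3 ± 4.4 against 62.6 ± 12, -1.55 ± 0.18) were lower. The receptor Thra, which shares its locus with Nr1d1 on the other strand, was 261 ± 27.4 against 97.6 ± 14.4 CPM (1.42 ± 0.11).

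Metabolic lists were split between the ages. Of 29 genes of glycolysis, lactate and glycogen 14 were higher and 8 lower. Aldoc, the brain aldolase, was 393 ± 58.8 CPM in neonatal and 65 ± 16.8 CPM in adult cultures (2.59 ± 0.15) and Pfkm 347 ± 25.1 against 67.1 ± 5.33 (2.37 ± 0.09). Eno2, the neuronal enolase, was 14.7 ± 1.77 against 32.4 ± 4.94 (-1.15 ± 0.20) and the lactate exporter Slc16a3 0.697 ± 0.171 against 6.96 ± 0.503 (-3.31 ± 0.28). The hexokinase Hk1 differed by 0.25 ± 0.10. Among respiratory chain subunits, 32 of 71 were higher and 2 lower, by small amounts. Ndufb5 (0.64 ± 0.09) and Ndufc1 (0.60 ± 0.08) had the largest changes, and Cycs (-0.43 ± 0.09) and Ndufb6 (-0.34 ± 0.08) were lower, while Ndufa2 was not called (92.2 ± 5.39 against 79.8 ± 6.25 CPM). Of 35 genes of fatty acid metabolism 23 were higher, with Acsl6 at 311 ± 61.6 against 30.05 ± 1.68 CPM (3.37 ± 0.22) and Elovl2 at 19.8 ± 1.56 against 1.98 ± 0.347 (3.32 ± 0.17). In the other direction, 8 were lower, among them Pparg (0.599 ± 0.264 against 7.82 ± 1.84, -3.68 ± 0.34) and the fatty acid receptor Cd36 (1.26 ± 0.536 against 13.1 ± 2.2, -3.37 ± 0.32). Fabp3 was under 1 CPM in both groups on average and was not called.

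Cholesterol genes were mostly lower in neonatal cultures, 20 of 29, with 5 higher. The exporter Abcg1 was at 6.35 ± 0.776 CPM in neonatal and 25.9 ± 5.64 CPM in adult cultures (-2.03 ± 0.18). Apoe and the exporter Abca1 (646 ± 28.8 against 177 ± 45.2, 1.87 ± 0.17) were higher and Hmgcs1, at the start of the pathway, was not called (383 ± 40.9 against 392 ± 18.5). In serine and one-carbon metabolism (7 higher, 7 lower of 20), Folh1 (60.5 ± 7.98 against 5.91 ± 0.932 CPM, 3.35 ± 0.17) and the glycine cleavage enzyme Amt (87.8 ± 11.4 against 16.7 ± 2.27, 2.40 ± 0.10) were higher. The mitochondrial folate enzymes Mthfd2 (24.8 ± 3.22 against 75 ± 10.8, -1.60 ± 0.18) and Mthfd1l (12.1 ± 4.54 against 53.6 ± 7.13, -2.15 ± 0.19) and the first enzyme of serine synthesis, Phgdh (-0.46 ± 0.14), were lower. Of 30 metallothionein and antioxidant genes 14 were higher, with Mt1 at 1474, 1801, 2038 and 1654 CPM against 236, 283, 259.9 and 276 CPM (2.72 ± 0.13, adjusted p = 7.62e-15) and Mt3 at 1476 ± 174 against 252 ± 30.3 (2.55 ± 0.16). A further 7 were lower, among them Gpx3 (9.78 ± 0.658 against 31.1 ± 1.66, -1.67 ± 0.15) and Gstp1 (65.1 ± 7.71 against 135 ± 9.52, -1.05 ± 0.12). Lysosomal genes were lower for 24 of 46, with Ctsc (39.4 ± 5.67 against 106 ± 23.5 CPM, -1.43 ± 0.12), Ctsa (-0.81 ± 0.10) and the microglial cathepsin Ctss (-3.35 ± 0.41). A further 6 were higher, with Ctso (102 ± 6.67 against 36.3 ± 2.26, 1.49 ± 0.10) and Ctsf (65.1 ± 8.88 against 24.6 ± 2.21, 1.40 ± 0.12).

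For contact with neurons and other cells, synapse-forming factors and phagocytic receptors were 6 higher and 14 lower of 28. Sparcl1, which codes for hevin, was at 1027, 1309.6, 1264 and 1114 CPM in neonatal and 142, 168, 174 and 237 CPM in adult cultures (2.71 ± 0.15, adjusted p = 4.36e-14). The glypican Gpc5 was at 9.15 ± 2.53 and 0.358 ± 0.223 (4.69 ± 0.28). Thbs1, coding for a thrombospondin that induces synapses, was 588, 753, 678 and 883 against 3285, 2647, 2408 and 2479 CPM (-1.90 ± 0.17). Receptors for purines and parts of calcium signalling were 23 higher and 16 lower of 46. The adenosine receptor Adora1 (287 ± 17.3 against 41.1 ± 6.78 CPM, 2.80 ± 0.11) and the ATP receptor P2ry1 (34.8 ± 0.615 against 9.34 ± 1.4, 1.90 ± 0.16) were on the neonatal side. The calcium release channel Itpr3 (1.01 ± 0.217 against 13.9 ± 5.13, -3.78 ± 0.32) and the calcium pump Atp2a3 (1.63 ± 0.449 against 8.6 ± 2.21, -2.40 ± 0.34) were on the adult side.

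Axon guidance genes were more often lower in neonatal cultures, 25 of 48, with 11 higher. The netrin receptor Unc5b was 16 ± 1.31 CPM in neonatal and 159 ± 26.2 CPM in adult cultures (-3.31 ± 0.43) and the ephrin Efnb3 8.63 ± 1.37 against 85.3 ± 26.7 (-3.31 ± 0.17). The ephrin receptor Epha5 (37.2 ± 4.42 against 6.54 ± 1.11, 2.51 ± 0.24) and Slit1 (9.31 ± 1.18 against 2.21 ± 0.426, 2.08 ± 0.18) were higher. Of 39 cadherins and neural adhesion genes 22 were higher, among them Astn1 (215 ± 17 against 30.1 ± 3.13 CPM, 2.84 ± 0.12), and 11 lower. Cdh1, the epithelial cadherin, was 0.281, 0.367, 0.36 and 0.166 against 21.2, 22.1, 56.8 and 23.7 CPM (-6.70 ± 0.43), and Cntn2, an axonal contactin also made by oligodendrocytes, 6.18 ± 0.53 against 233 ± 82.2 (-5.23 ± 0.25).

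**Figure D4:**
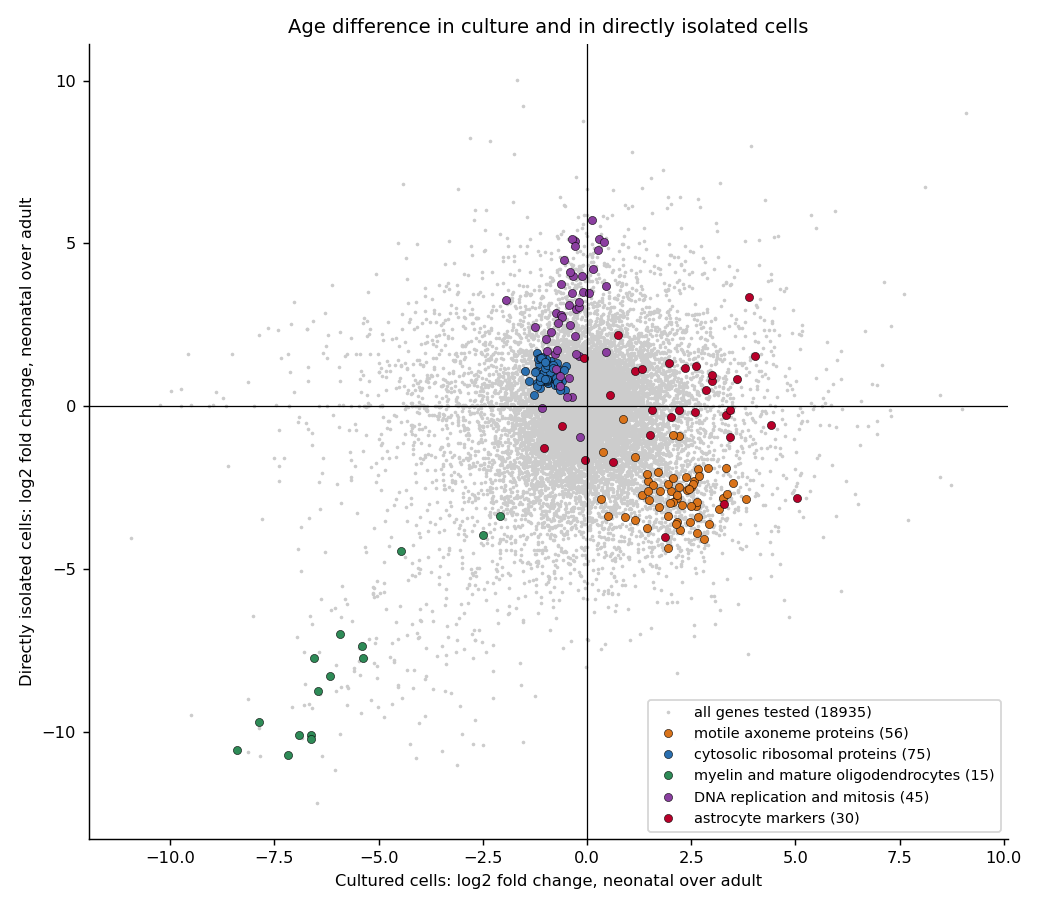
Log2 fold change, neonatal over adult, of each gene tested, in culture (x axis) and in directly isolated cells (y axis), with all genes in grey and 5 lists in colour. Axoneme genes lie at right below zero, ribosomal protein genes at left above zero, myelin genes at lower left, and replication and mitosis genes mostly above zero on the y axis.

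The age difference in culture was often not that of cells frozen straight after sorting. In directly isolated cells 13523 genes (71.4%) were called, 34.7% higher and 36.7% lower in neonatal cells. Of the 5411 genes higher in neonatal cultures, 1962 (36.3%) were also higher in directly isolated neonatal cells and 2223 (41.1%) were lower. Of the 6720 lower in culture, 2472 (36.8%) were also lower and 2386 (35.5%) higher. The test of the difference itself, the interaction of age and culture, called 13021 genes (68.8%), with a positive interaction for 33.5% of those tested and a negative one for 35.3%. In all, 4609 genes (24.3%) were called on opposite sides in the 2 comparisons. Each of these also had an interaction with an adjusted p under 0.05. The interaction is the difference of the 2 changes in the same fit, so this adds no separate evidence.

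Among the lists, axoneme genes changed sides in 54 of 56 cases, ribosomal protein genes in 75 of 75, IFT and BBSome genes in 25 of 35 and replication and mitosis genes in 24 of 45, beside 24.3% of all genes tested. The summed level of axoneme genes was 979, 829, 608 and 925 CPM in directly isolated neonatal and 6684, 6079, 6238 and 6545 CPM in directly isolated adult cells. The ages were apart in both comparisons, with the higher level in adult cells before and in neonatal cells after culture. Foxj1 followed (-1.86 ± 0.15 in directly isolated cells, interaction 4.43 ± 0.21), whereas Cdc20b and Mcidas were higher in neonatal cells in both comparisons (9.01 ± 0.53 and 6.72 ± 0.42). Myelin genes kept their side in all 15, and 14 had a smaller difference in culture. Astrocyte markers were close to even in directly isolated cells, with 13 higher and 10 lower of 30, and 23 had a positive interaction, beside 33.5% of all genes tested.

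The genes with the most positive interaction were Etnppl, an enzyme of lipid metabolism found in adult astrocytes (2.60 ± 0.32 in culture, -10.19 ± 0.34 in directly isolated cells, interaction 12.79 ± 0.46), and Rpe65 (3.86 ± 0.51 and -7.60 ± 0.57, 11.45 ± 0.77). In the same order of values, Nhlrc4 (3.06 ± 0.21 and -5.99 ± 0.28, 9.05 ± 0.35), Ucma (5.19 ± 0.33 and -3.41 ± 0.34, 8.61 ± 0.47) and Ccdc153 (3.73 ± 0.16 and -4.39 ± 0.16, 8.12 ± 0.23) followed. Etnppl was at 1.47, 2.65, 4.71 and 2.72 CPM in neonatal and 0.338, 0.437, 0.584 and 0.527 CPM in adult cultures, and in directly isolated cells at 0.144 ± 0.0926 and 179.9 ± 40.4 CPM. The most negative was Has2 (-4.42 ± 0.37 and 6.83 ± 0.38, interaction -11.25 ± 0.53), at 36.3 ± 9.49 CPM in directly isolated neonatal and 0.309 ± 0.155 CPM in directly isolated adult cells. Msln, Cldn4 and Krt17 (interactions -10.46 ± 1.13, -10.27 ± 3.06 and -10.26 ± 2.85) were under 1 CPM in both directly isolated groups, so that these values rest on few counts there. Grem1 changed sides (2.39 ± 0.52 in directly isolated cells, interaction -10.05 ± 0.59).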

How the data were processed

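Poly(A) RNA of 24 mouse libraries was measured by stranded paired-end sequencing. The authors aligned reads with STAR 2.7.3a to GRCm38, keeping reads that mapped to several places, and deposited raw counts per gene from featureCounts. Strand use in counting was not given in the sources used here, so genes that overlap another on the opposite strand are uncertain. How reads that match several places were counted was not stated either, so members of near-identical families are uncertain too. Symbols and positions were taken from Gencode vM21.

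From these deposited counts, genes were filtered with filterByExpr, scaled by TMM and tested with edgeR 4.0.16 (quasi-likelihood, robust) in R 4.3.3, in 1 fit of all 6 groups without covariates, so that the groups share an estimate of spread. Adjustment (Benjamini-Hochberg) ran over every gene tested, before X, Y and scaffold genes were left out. Replicates are separate samples per the labels and, for the primary astrocytes, separate isolations from 2 mice each per the methods. The p-values rest on the spread between replicates of all 6 groups, not of the cultured groups alone. Totals of 28770124 to 35430519 counts per cultured library put 3 counts at 0.0786 to 0.0936 CPM.

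Genes and lists were chosen with earlier results of these data known. Named genes are the 10 largest differences each way among protein-coding genes that were called, did not overlap between libraries and reached 10 CPM on their higher side, the 2 largest each way per list that reached 5 CPM plus its first member, the 5 largest interactions each way, and the 6 called genes with the highest level in each group. Ccno, Cxcl10, Dhx29, Esm1, Gpx8, Mki67, Mmp8, Mmp10, Mmp13, P2ry12, Tmem119, Ttr, Gm42418 and the genes shown only by their promoters were chosen after their values were seen. Some genes that this rule takes are not reported here. Promoters come from RefSeq, GRCm38.p6. The statistical scripts were tested on simulated data. Alternatives were DESeq2 1.42.0 (size factors, and the Wald test), library size only, no filter, a fold criterion, fits of fewer libraries, the replicate number as a block, and leaving out each cultured library.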

Additional observations from a re-analysis of the deposited data

Results flagged for a closer look

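Among the values given in the report, each group of 4 cultured libraries was examined for a library far from its mates, by Dixon's ratio of gap to range. Of 552 such groups, 44 (8.0%) had one. The cutoff gives about 1 in 20 for independent normal values. These groups are related genes and sums that contain them, and some hold only a few counts. The share can therefore not be read as an excess. Adult replicate 1 was the library in 16 of them, adult replicate 3 in 8 and neonatal replicate 1 in 7.

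Adult replicate 1 stood above the other adult cultures for interferon-stimulated genes, with a sum of 728 CPM, and for Ifit1 (18.4 CPM), Irf7 (11.8 CPM), Iigp1 (8.99 CPM) and Cxcl10 (53.6 CPM). It was also the highest for Gm42418 (14081 CPM), Fosl1 (56.3 CPM), Agt (2.24 CPM) and Rpl13a (29.8 CPM). It was the lowest for the sum of astrocyte markers (3880 CPM), for the lipid genes Abca1 (109 CPM) and Scd2 (1800.1 CPM), and for Amt (13.3 CPM), Csf1r (3.93 CPM), Cxcl14 (10.6 CPM) and Serpine2 (164 CPM).

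Adult replicate 3 stood above the other adult cultures for epithelial and mesothelial genes, with a sum of 489 CPM, and for Cdh1 (56.8 CPM), Cldn4 (54.2 CPM), Krt8 (82.7 CPM), Fermt1 (23.9 CPM), Lgr6 (46.8 CPM) and Foxn4 (0.345 CPM), and was the lowest for Zmynd10 (6.83 CPM). Adult replicate 4 was the highest for Cdkn2c (57.2 CPM), Slc6a11 (14.7 CPM) and Ttc21b (21.6 CPM) and the lowest for Cdkn1a (619 CPM) and Lama2 (37.5 CPM). Adult replicate 2 was the lowest for Col1a1 (595 CPM).

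Neonatal replicate 1 stood above the other neonatal cultures for Hmga1 (39.2 CPM), Gas1 (155 CPM), Plaur (2.90 CPM), Lgr6 (3.43 CPM), Foxc2 (0.905 CPM) and Krt17 (0.0936 CPM), and was the lowest for Dlx1 (29.5 CPM). Neonatal replicate 2 was the highest for Cldn4 (0.0786 CPM) and Mmp8 (0.0262 CPM). Neonatal replicate 3 was the highest for Mt3 (1735 CPM) and the lowest for Fermt1 (0 CPM). Neonatal replicate 4 was the highest for Hmgcs1 (443 CPM) and Cldn6 (0.0831 CPM) and the lowest for Nnat (197 CPM). The values of Krt17, Cldn4, Cldn6, Fermt1 and Mmp8 in the neonatal cultures are of 3 counts or fewer.

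The age difference in culture differed from that in directly isolated cells for 13021 genes by the interaction test in edgeR. On the log2 scale the interaction was 12.79 for Etnppl, 11.45 for Rpe65, 9.05 for Nhlrc4, 8.61 for Ucma, 8.12 for Ccdc153 and 4.43 for Foxj1. It was -11.25 for Has2, -10.46 for Msln, -10.27 for Cldn4, -10.26 for Krt17 and -10.05 for Grem1.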

How the results depend on the processing

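No named gene and no list median given here changed its sign under any alternative, but the balance of genes higher and lower in neonatal cultures did. It was 5411 to 6720 as reported, 6147 to 5711 with DESeq2's size factors, 5954 to 5926 by library size, 6173 to 6114 without the filter and 6460 to 5920 by DESeq2's Wald test. With a change of more than 2-fold also required, 2947 genes were higher and 2716 lower in neonatal cultures, 3059 and 4329 in directly isolated neonatal cells, 4648 had a positive and 3880 a negative interaction, against 6336 and 6685 without this criterion. The main counts of 24 lists then fell markedly and those of 34 did not. Still called lower were 29 of 75 ribosomal, 3 of 27 replication and mitosis, 3 of 24 lysosomal and 3 of 15 YAP and TEAD genes. Still called higher were 15 of 32 IFT and BBSome genes and 0 of 32 respiratory chain subunits. Leaving out each cultured library in turn gave 5197 to 5401 genes higher and 6236 to 6582 lower. The count of interferon-stimulated genes higher in neonatal cultures ranged from 24 to 31, and that of MHC class I genes was 6 without neonatal replicate 2, against 10 with all libraries.

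At least 1 of these omissions ended the call of Ccl2, Ccn1, Cd109, Cenpf, Col11a1, Cxcl10, H2-T23, Hk1, mt-Co1 and mt-Cytb or began that of Mki67. Scaling by DESeq2's size factors or by library size ended the calls of Ccn1 and Dhx29. DESeq2's Wald test ended the calls of 4 named genes and leaving out the filter those of 5. The fit of the 8 cultured libraries ended 4 calls and began 1, and with the block it ended 5 and began 2. Genes with under 3 counts in a library are limited by depth, and their fold changes depend on the prior count.

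Replicate numbers did not pair the samples: deviations of same-numbered neonatal and adult cultures correlated at -0.08, 0.02, 0.04 and 0.03. With the replicate number as a block in a fit of the 8 cultured libraries, 5964 genes were higher and 5929 lower, against 6054 and 5967 without it, and 13 of 33 interferon-stimulated genes were higher, against 23 without it.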
